A study of Mus musculus with 6 samples.

Results

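The phosphofructokinase step of glycolysis was described by 10 genes, out of 22183 in the deposited table, in libraries labelled as peritoneal endothelial cells (ECs) from mice. The genes were chosen by symbol: the PFKFB isoforms Pfkfb1, Pfkfb2, Pfkfb3 and Pfkfb4, the subunits of phosphofructokinase-1 (PFK-1) Pfkl, Pfkm and Pfkp, and the bisphosphatases Fbp1, Fbp2 and Tigar. All 10 symbols were found, each in 1 row of the table. The comparison was between 3 wild-type mice injected intraperitoneally with peritoneal dialysis (PD) fluid for 6 weeks and 3 wild-type mice injected with saline for the same time. The animals were male C57BL/6J mice aged 8 to 10 weeks, the PD fluid was glucose-based, and injections were daily. Each mouse gave 1 library, and the question was whether PD fluid changes the metabolism of these cells.

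PFK-1 converts fructose 6-phosphate to fructose 1,6-bisphosphate, which commits glucose carbon to glycolysis. The PFKFB enzymes make and break down fructose 2,6-bisphosphate, a strong activator of PFK-1, and PFKFB3 is the isoform whose kinase activity most outweighs its bisphosphatase activity. ECs depend on glycolysis for much of their ATP, and PFKFB3 is known as a driver of vessel sprouting. FBP1 and FBP2 oppose this step by converting fructose 1,6-bisphosphate back to fructose 6-phosphate, while TIGAR lowers fructose 2,6-bisphosphate.

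The libraries held between 21973426 and 26374292 counted reads. The sample labels name magnetic sorting of CD31+ cells, and the study's supplementary methods name sorting of CD31+ CD45- cells. Markers of other cells were present in both groups. Levels that are not per length are given as CPM, the counts per library size after TMM scaling. CD31 itself (Pecam1) was at 469 ± 19.4 CPM with saline and 514 ± 7.85 CPM with PD fluid, Cdh5, which encodes VE-cadherin, at 18.9 ± 2.72 and 33.3 ± 1.03 CPM, and CD45 (Ptprc) at 2373 ± 127 and 1473 ± 63.6 CPM (SD, n = 3 mice each), so CD45 transcripts were abundant in all mice. The 12 endothelial markers summed to 1172 to 1195 CPM in saline mice and 1907 to 2036 CPM in PD mice, and 11 of the 12 rose. The exception was Pecam1, with a log2 fold change of 0.13 (adjusted p = 0.0704 in edgeR's test), so the markers did not rise equally. The 9 B cell markers summed to 7198 to 7507 CPM and 3457 to 3501 CPM, respectively, and all 9 fell. The 10 macrophage markers summed to 2343 to 2477 CPM and 9772 to 10560 CPM, and all 10 rose. Mesothelial markers (14.6 to 18.0 CPM, then 159 to 183 CPM) and fibroblast markers (94.95 to 103 CPM, then 853 to 889 CPM) rose in all 8 genes of each list, as did all 10 acinar markers (3.20 to 6.04 CPM, then 6508 to 7450 CPM). Neutrophil markers summed to 17.9 to 21.1 CPM and 320 to 359 CPM, and 6 of 8 rose, with Ly6g at 3 counts or fewer in each saline mouse. T and NK cell markers summed to 3045 to 3172 CPM and 2325 to 2617 CPM, with 1 of 10 higher and 5 lower. Muscle markers summed to 60.5 to 65.3 CPM and 163 to 182 CPM, with 4 of 9 higher and 1 lower, and adipocyte markers to 25.1 to 28.3 CPM and 26.2 to 30.9 CPM, with 1 of 8 higher. B cell, macrophage and T and NK cell markers each summed to more than the endothelial markers in every mouse of both groups. In these bulk libraries a change in the number of cells of a type and a change in RNA per cell cannot be told apart, and the part of other cell types in the results below was not tested.

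Per transcript length, Pfkp and Pfkl were the most abundant of the 10 transcripts and Fbp1 and Fbp2 were barely detected. In saline mice the mean FPKM (a level per transcript length and library size, from the deposited table) was 55.8 ± 3.34 for Pfkp, 55.7 ± 5.35 for Pfkl and 22.7 ± 0.955 for Pfkfb3 (SD, n = 3 mice). Pfkfb4 followed at 5.66 ± 0.989, Tigar at 5.23 ± 0.567, Pfkm at 2.01 ± 0.517, Pfkfb1 at 1.90 ± 0.263 and Pfkfb2 at 1.72 ± 0.108 FPKM. The ranges of Pfkp and Pfkl overlapped in saline mice, as did those of Pfkfb4 and Tigar, and those of Pfkm, Pfkfb1 and Pfkfb2. In PD mice the order at the top was Pfkp at 66.7 ± 1.90, Pfkl at 52.3 ± 1.35 and Pfkfb3 at 48.8 ± 2.81 FPKM (SD, n = 3 mice), with no overlap between neighbours. Pfkfb3 thus stood at a level near that of a PFK-1 subunit in PD mice, which it did not in saline mice.

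**Figure D1:**
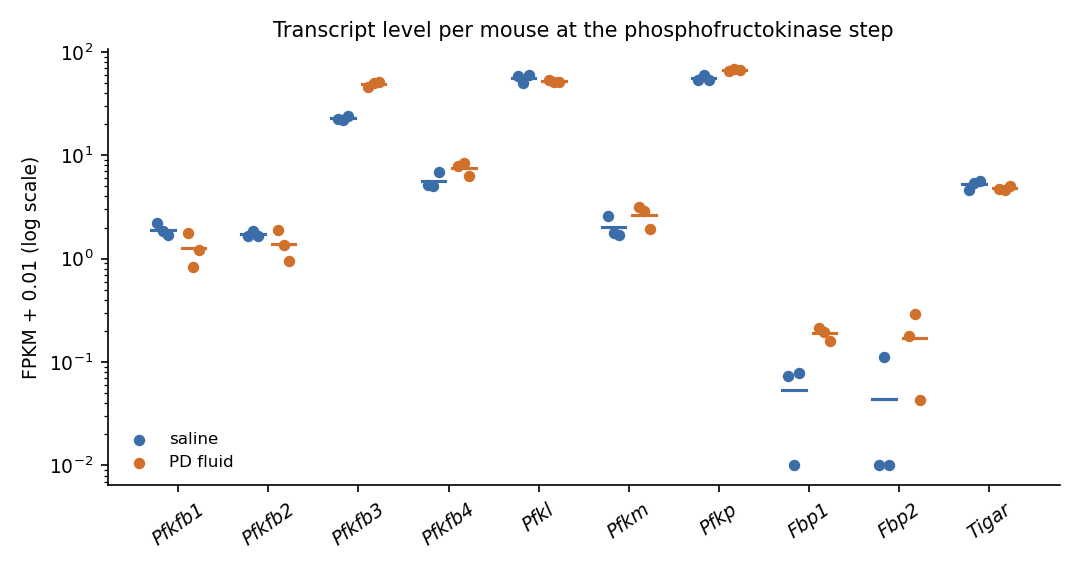
Transcript level (FPKM plus 0.01, log scale) of the 10 genes in each of 3 saline mice (blue) and 3 PD fluid mice (orange). Points are mice and bars are group means. Pfkfb3 was separated between groups, from 22.7 to 48.8 FPKM, and Fbp1 and Fbp2 lay below 1 FPKM in every mouse.

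Of the 10 genes, 8 passed the filter on low counts and were tested. In PD mice, 3 rose (Pfkfb3, Pfkfb4 and Pfkp), none fell and 5 did not pass the threshold of an adjusted p of 0.05 in edgeR's quasi-likelihood test, while DESeq2 called 1 lower (Pfkl) and DESeq2 size factors in edgeR called 2 lower (Pfkl and Pfkfb2). With the libraries scaled so that the summed counts of the 12 endothelial markers were equal in all mice, 1 of the 8 was called higher (Pfkfb3) and 6 lower. Under that scaling 1631 of all 14005 tested genes were called higher and 9115 lower. With TMM scaling, the 3 genes that rose were 37.5% of the 8 tested genes. In the same comparison 31.1% of all 14005 tested genes were higher and 27.8% lower. The share of rising genes at this step was thus near that of the whole transcriptome. The median log2 fold change of the 8 genes was 0.02, as was that of all tested genes. Without adjustment, 6 of the 8 had a p under 0.05 in edgeR's test, of which 3 were in the lower direction. The share of all tested genes at that unadjusted p was not computed, but 58.9% of them passed even after adjustment, in either direction. The 6 genes are therefore not read as a result about this step. In CPM, the mice did not overlap between groups in 4 of the 8 genes, against 65.6% of all tested genes in either direction. Of these 4, 2 were higher (against 34% of all tested genes) and 2 lower (against 31.6%) in PD mice.

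Pfkfb3 (ENSMUSG00000026773; chromosome 2 of GRCm38, 11471433 to 11554077, minus strand) was the gene with the largest change among the 8. Saline mice had 63.1, 62.0 and 68.7 CPM, and PD mice had 124, 132 and 141 CPM. The lowest PD mouse was therefore well above the highest saline mouse. The log2 fold change was 1.03 (standard error, SE, 0.07), or 2.04-fold, with an adjusted p of 8.2e-07 (Benjamini-Hochberg, over all tested genes) in edgeR's test. It kept its side of the threshold with each of the 6 mice left out. Under the endothelial marker scaling Pfkfb3 was still higher, by 0.30 on the log2 scale (adjusted p = 0.00746 in edgeR's test). That scaling moved the median of all tested genes to -0.71. Since it shifts every gene by about the same amount, the distance of Pfkfb3 from the typical gene was kept by construction. As a percentage of the summed CPM of the 12 endothelial markers, Pfkfb3 stood at 5.29, 5.29 and 5.77 in saline mice and at 6.08, 6.74 and 7.37 in PD mice. Both the scaling and this percentage use a sum in which Pecam1 weighs heavily, at 469 of 1172 to 1195 CPM in saline mice. Pecam1 showed a log2 fold change of only 0.13, whereas the markers Cdh5 and Kdr showed 0.82 and 0.98, closer to that of Pfkfb3. Whether Pfkfb3 stays higher against a sum without Pecam1 was not tested.

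Pfkfb4 (ENSMUSG00000025648; chromosome 9, 108991778 to 109032228, plus strand), an isoform known to respond to hypoxia, rose by much less. It was at 17.9, 16.6 and 23.2 CPM in saline mice and at 26.0, 27.8 and 21.7 CPM in PD mice. The third PD mouse lay below the third saline mouse, so the groups overlapped. This gave a log2 fold change of 0.39 (SE 0.14, adjusted p = 0.0348 in edgeR's test). The call was lost without saline mouse 1 (adjusted p = 0.115), saline mouse 2 (0.0931), PD mouse 1 (0.0916) or PD mouse 2 (0.132) in the same edgeR test. Under the endothelial marker scaling its direction turned, to -0.34 (adjusted p = 0.0318 in edgeR's test).

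Pfkfb1 and Pfkfb2, isoforms first known from liver and heart, were lower in CPM in every PD mouse than in any saline mouse but missed the threshold. In FPKM the groups overlapped for both genes through PD mouse 1. Pfkfb1 was at 1.77 FPKM in that mouse and 1.68 in saline mouse 3. Pfkfb2 was at 1.89 FPKM in PD mouse 1, above the highest saline mouse (1.84). Pfkfb1 (ENSMUSG00000025271; chromosome X, 150588229 to 150643878, plus strand) was at 3.28, 2.72 and 2.53 CPM in saline mice and 2.47, 1.43 and 1.72 CPM in PD mice. This was a log2 fold change of -0.60 (SE 0.27, adjusted p = 0.0764 in edgeR's test), on 34 to 84 reads a mouse. Pfkfb2 (ENSMUSG00000026409; chromosome 1, 130689182 to 130729253, minus strand) was at 6.01, 5.03 and 5.47 CPM in saline mice and 4.34, 4.32 and 3.53 CPM in PD mice. The log2 fold change was -0.44 (SE 0.18, adjusted p = 0.0513 in edgeR's test). In Pfkfb2 some exon sequence lies in other genes, with 1262 bases shared with Gm29427 on the same strand, which had no reads in any mouse, and 154 bases shared with Yod1 on the opposite strand. Pfkfb1 shares 123 exon bases with Apex2 on the opposite strand, which showed a log2 fold change of -0.02 (adjusted p = 0.908 in edgeR's test). Yod1 showed a log2 fold change of -0.92 (adjusted p = 0.000141 in edgeR's test), and its part in the Pfkfb2 value was not tested.

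The makeup of the PFKFB transcripts differed between groups. Pfkfb3 held 71.2%, 71.7% and 70.1% of the summed PFKFB FPKM in saline mice and 79.8%, 82.5% and 85.8% in PD mice. The mean share was 71.0% ± 0.812 and 82.7% ± 3.01 (SD, n = 3 mice each), a difference of 11.7 percentage points. In the two-sided exact permutation test p was 0.1, which is the lowest value possible with 3 mice per group. The shares of Pfkfb4 (17.7% to 12.8%), Pfkfb1 (5.97% to 2.17%) and Pfkfb2 (5.39% to 2.36%) were each lower in every PD mouse than in any saline mouse. The summed PFKFB level was 31.9 ± 1.72 FPKM in saline mice and 58.9 ± 1.81 FPKM in PD mice (SD, n = 3 mice each). Within each mouse, the log2 ratio of Pfkfb3 to Pfkfb4 was 2.09, 2.11 and 1.79 in saline mice and 2.52, 2.55 and 3.00 in PD mice. The difference of 0.70 had p = 0.1 in the two-sided exact permutation test. A share within a mouse does not depend on how libraries were scaled, and a ratio does so only through its pseudocount of 0.1 FPKM.

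**Figure D2:**
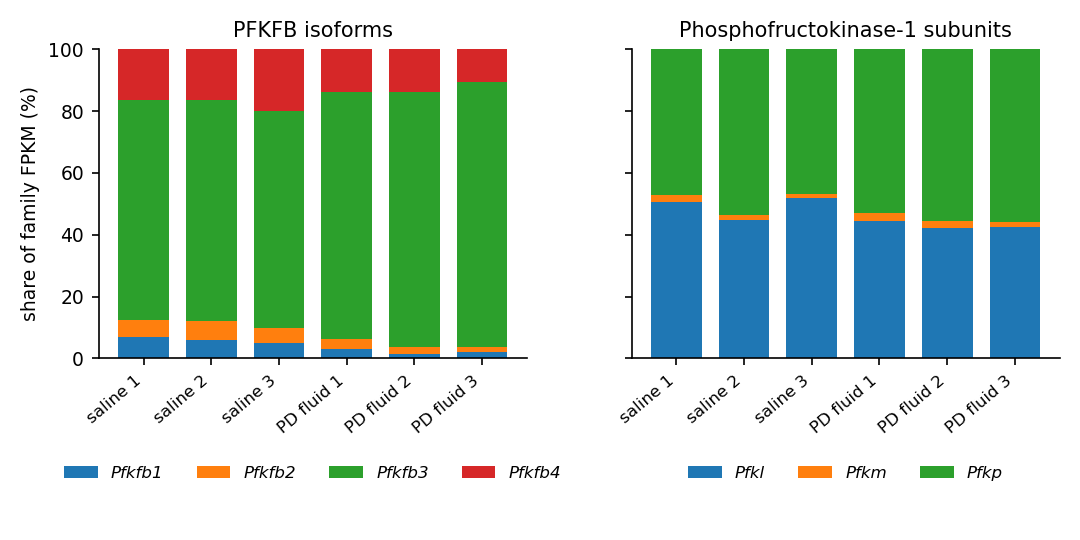
Share of the summed FPKM (%) held by each PFKFB isoform (left) and each PFK-1 subunit (right), with 1 stacked bar per mouse. The Pfkfb3 share was 70.1% to 71.7% in saline mice and 79.8% to 85.8% in PD mice, while Pfkl and Pfkp split the subunit transcripts almost evenly in saline mice.

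For the PFK-1 subunits, Pfkp rose slightly and Pfkl and Pfkm did not pass the threshold. Pfkp (ENSMUSG00000021196; chromosome 13, 6579768 to 6648777, minus strand), the platelet-type subunit, was at 159, 179 and 165 CPM in saline mice and 184, 198 and 197 CPM in PD mice. The log2 fold change was 0.20 (SE 0.07, adjusted p = 0.0220 in edgeR's test), or 1.15-fold. The groups did not overlap, but the gap between saline mouse 2 and PD mouse 1 was small. The call was lost without saline mouse 1 (adjusted p = 0.0926), saline mouse 3 (0.0632) or PD mouse 2 (0.0769) in that edgeR test. Under the endothelial marker scaling Pfkp showed a log2 fold change of -0.53 (adjusted p = 5.6e-05 in edgeR's test). Pfkp shares 748 exon bases with Pitrm1 on the opposite strand, and Pitrm1 showed a log2 fold change of 0.06 (adjusted p = 0.491 in edgeR's test).

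Pfkl (ENSMUSG00000020277; chromosome 10, 77986947 to 78010083, minus strand), the liver-type subunit, was at 183, 166 and 191 CPM in saline mice and 157, 158 and 168 CPM in PD mice. The log2 fold change was -0.16 (SE 0.07, adjusted p = 0.0632 in edgeR's test), with the groups overlapping through saline mouse 2. Without that mouse it passed, at -0.22 (adjusted p = 0.00980 in edgeR's test). Pfkm (ENSMUSG00000033065; chromosome 15, 98092589 to 98132451, plus strand), the muscle-type subunit, was the rarest, at 6.83, 4.33 and 4.72 CPM in saline mice and 7.43, 8.09 and 5.48 CPM in PD mice. The log2 fold change of 0.40 (SE 0.21, adjusted p = 0.129 in edgeR's test) was within the spread between mice. Pfkm shares 18 exon bases with Senp1 on the opposite strand and 341 with Gm26513 on the same strand, which is not in the deposited table. Senp1 showed a log2 fold change of -0.35 (adjusted p = 0.00361 in edgeR's test), and its part in the Pfkm value was not tested. Pfkm passed without saline mouse 1, at 0.64 (adjusted p = 0.0326 in edgeR's test).

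The subunit makeup moved less than that of the PFKFB isoforms. Pfkp held 47.2%, 53.8% and 46.8% of the summed subunit FPKM in saline mice and 53.1%, 55.6% and 55.8% in PD mice. The difference of 5.63 percentage points had p = 0.2 in the two-sided exact permutation test, since saline mouse 2 lay among the PD mice. Computed from counts, the difference was 5.93 percentage points and the groups did not overlap (exact permutation p = 0.1). Pfkl held 49.0% ± 3.8 in saline mice and 43.0% ± 1.17 in PD mice (SD, n = 3 mice each), without overlap (exact permutation p = 0.1). Pfkm held 1.77% ± 0.442 and 2.17% ± 0.524, respectively (exact permutation p = 0.2). Pfkl was the more abundant subunit in 2 of 3 saline mice, and Pfkp in all 3 PD mice. The summed subunit level was 114 ± 2.18 FPKM in saline mice and 122 ± 0.830 FPKM in PD mice (SD, n = 3 mice each).

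Among the bisphosphatases, Tigar (ENSMUSG00000038028; chromosome 6, 127085116 to 127109557, minus strand), which is induced by p53, had enough reads to be tested and the FBP genes had not. Tigar was at 12.2, 14.0 and 16.2 CPM in saline mice and 11.9, 13.5 and 12.2 CPM in PD mice. The groups overlapped, and the log2 fold change was -0.17 (SE 0.13, adjusted p = 0.285 in edgeR's test). Tigar shares 122 exon bases with Platr31 on the opposite strand, which is not in the deposited table. Fbp1 (ENSMUSG00000069805; chromosome 13, 62864753 to 62888282, minus strand), the liver-type enzyme, had 1, 0 and 1 reads in saline mice and 7, 4 and 5 reads in PD mice. Fbp2 (ENSMUSG00000021456; chromosome 13, 62836877 to 62858422, minus strand), the muscle-type enzyme, had 0, 3 and 0 reads in saline mice and 6, 9 and 1 reads in PD mice. Every saline mouse was at or under the detection floor of 3 reads for both genes. Per counted read, the ratio of PD to saline mice was 7.88 for Fbp1 (95% exact binomial interval 1.85 to 70.7) and 5.25 for Fbp2 (1.5 to 28.1), where the intervals cover counting error only and not the spread between mice. Of the 8 hepatocyte markers, all 8 were at 3 reads or fewer in each saline mouse, and 6 exceeded this in at least 1 PD mouse. The log2 ratio of the summed PFK-1 subunits to the summed Fbp1 and Fbp2 was 9.33 ± 0.188 in saline mice and 8.17 ± 0.507 in PD mice (SD, n = 3 mice each). The difference of -1.15 (exact permutation p = 0.1) rests on these few Fbp reads and shrank to -0.21 with a pseudocount of 1 FPKM in place of 0.1.

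**Figure D3:**
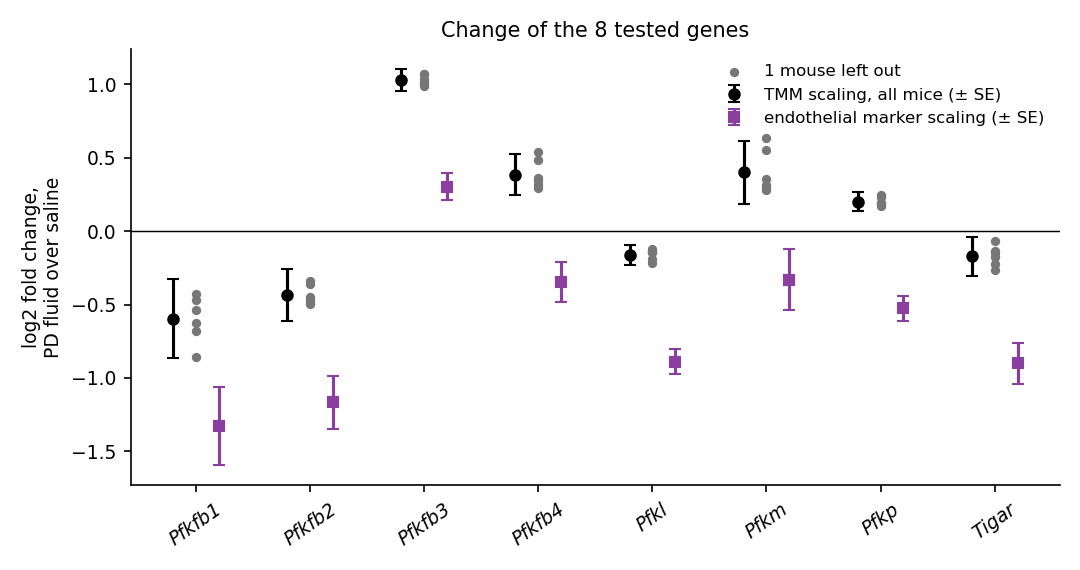
Log2 fold change of PD fluid over saline for the 8 tested genes. Black circles are the values with TMM scaling (± standard error, 3 mice per group), grey points are the values with 1 mouse left out, and purple squares are the values with the endothelial markers set equal (± standard error). Pfkfb3 was above 0 in all of them, whereas Pfkfb4, Pfkm and Pfkp were above 0 with TMM scaling and below 0 with the marker scaling.

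The RefSeq windows of 250 bases upstream of each annotated transcript start (GRCm38.p6) were searched on both strands for ACGTG, the core of the element bound by hypoxia-inducible factors. The same letters lie inside CACGTG, the E-box bound by MYC and other factors, so a match to CACGTG is also a match to ACGTG. Of 19 windows for the 10 genes, 7 held a match, against 16.6% of all 32851 windows. The matches lay in windows of 4 genes, namely Pfkfb2, Pfkfb3, Pfkm and Fbp2, and those of Pfkfb1, Pfkfb4, Pfkl, Pfkp, Fbp1 and Tigar had none. The 4 matches in PFKFB windows are shown since they lie in the isoform that rose most and in one that did not pass the threshold. They are written 5′ to 3′ on the strand of the gene, with the match in capitals.
Pfkfb3, start at 11553929 (chr2:11553975-11553999, minus strand): ccgcgccgtgACGTGccaagctgtg
Pfkfb3, start at 11502090 (chr2:11502128-11502153, minus strand): cccttctctcCACGTGaaagggggct
Pfkfb2, start at 130715821 (chr1:130715828-130715853, minus strand): ccaagcgcccCACGTGactcgcccca
Pfkfb2, start at 130714576 (chr1:130714734-130714758, minus strand): gcagctgtatACGTGaggagtcagg
In Pfkfb3 the matches began 60 and 53 bases before the respective starts, and in Pfkfb2 they began 22 and 172 bases before, while the window of the other Pfkfb2 start held none. A match is a description of the letters, and no binding was measured here.

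For the regulators of this step, a list of 18 genes was followed, of which 8 rose, none fell and 10 did not pass the threshold in edgeR's test. Those that rose were Prkaa2, Notch1, Epas1, Kdr, Akt1, Klf2, Mapkapk2 and Hif1a. The median log2 fold change over the list was 0.34, against 0.02 over all tested genes, of which 31.1% were higher and 27.8% lower. Epas1, which encodes HIF-2α, was at 98.6, 73.8 and 109 CPM in saline mice and 232, 182 and 178 CPM in PD mice, a log2 fold change of 1.07 (SE 0.14, adjusted p = 7.3e-05 in edgeR's test). Notch1, a receptor that restrains sprouting, had one of 1.29 (SE 0.17, adjusted p = 7.0e-05 in that edgeR test). Prkaa2, a catalytic subunit of AMP-activated protein kinase, had one of 1.67 at a level under 1 CPM (adjusted p = 0.0121 in that edgeR test). Prkaa1, the other catalytic subunit, stood at 56.4 and 57.3 CPM in saline and PD mice.

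The following 3 regulators were picked after their values were seen. Kdr, the VEGF receptor that is also on the list of endothelial markers, showed a log2 fold change of 0.98 (adjusted p = 1.9e-07 in edgeR's test). Klf2, a flow-responsive factor known to repress Pfkfb3 in ECs, had one of 0.68 (adjusted p = 0.000876 in edgeR's test). Hif1a had one of 0.22 (adjusted p = 0.0162 in edgeR's test), and this was not called without saline mouse 1 or saline mouse 3 (adjusted p = 0.0676 and 0.0605 in edgeR's test). With the endothelial markers set equal, 3 of the 18 were higher (Notch1, Epas1 and Kdr) and 9 lower. Kdr is itself part of the marker sum that set this scaling, so its call there is not independent of it. Of all 14005 tested genes, 1631 were higher and 9115 lower under that scaling. There Klf2 stood at -0.05 and Hif1a at -0.52 on the log2 scale. Egln3 and Vegfa, also on the list, did not pass the threshold, with log2 fold changes of 0.47 (adjusted p = 0.105) and 0.67 (adjusted p = 0.0600) in edgeR's test.

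In the rest of glycolysis, genes moved in both directions. Of 23 genes from glucose uptake to lactate export, 22 were tested, 10 rose, 5 fell and 7 did not pass the threshold in edgeR's test, with a median log2 fold change of 0.13. Over all tested genes, 31.1% were higher and 27.8% lower, with a median of 0.02. Slc16a3, a lactate exporter, was at 1.90 ± 0.399 CPM with saline and rose to 13.8 ± 1.11 CPM with PD fluid (SD, n = 3 mice each), a log2 fold change of 2.86 (SE 0.18, adjusted p = 2.8e-07 in edgeR's test). Eno2, a neuronal-type enolase, had one of 1.87 (adjusted p = 0.0181 in edgeR's test) at a level near 1 CPM. That call was lost without saline mouse 1 (adjusted p = 0.0651 in edgeR's test) or PD mouse 1 (0.0945), and it showed a log2 fold change of 1.40 and 1.47 in those fits and of 2.82 without saline mouse 3. The genes that fell most were Aldoc at -0.42 (adjusted p = 0.0223), Slc2a3 at -0.31 (adjusted p = 0.00754) and Slc2a1 at -0.29 (adjusted p = 0.00339) in edgeR's test. Slc2a1 and Slc2a3 encode the glucose transporters GLUT1 and GLUT3. Slc2a1 was at 86.7, 86.1 and 84.8 CPM in saline mice and 67.5, 72.4 and 71.3 CPM in PD mice. The call of Aldoc was lost without saline mouse 2 (adjusted p = 0.0733), PD mouse 1 (0.0729) or PD mouse 2 (0.0611) in edgeR's test. With the endothelial markers set equal, 3 of the 22 genes were higher and 15 lower, against 1631 and 9115 of all 14005 tested genes. Without saline mouse 2, PD mouse 1 or PD mouse 2, 2 genes were called lower rather than 5.

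Of the 5 gluconeogenesis genes, 4 were tested and none was called in edgeR's test. G6pc had no reads in any mouse. Pcx, which makes oxaloacetate from pyruvate, showed a log2 fold change of 0.75 and an adjusted p of 0.05001 in that edgeR test, and was called by DESeq2 and limma-voom. The median log2 fold change of the 4 genes was 0.03.

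**Figure D4:**
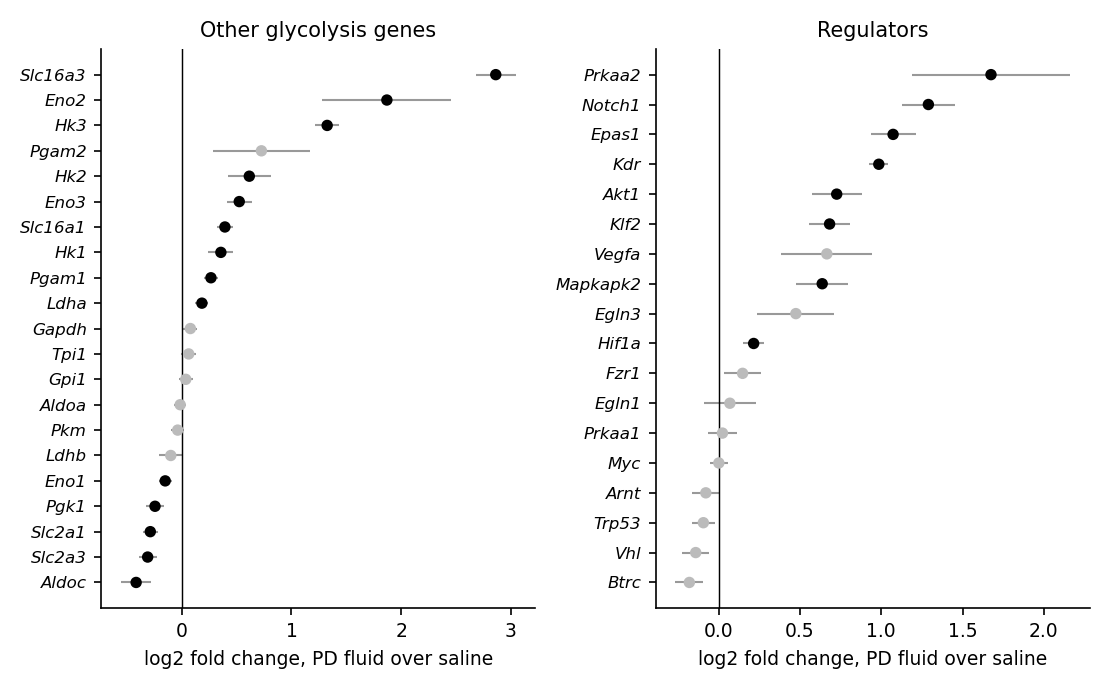
Log2 fold change of PD fluid over saline (± standard error, 3 mice per group) for tested genes of the glycolysis list, 1 of which is not shown (left) and of the list of regulators (right). Black points passed the threshold of 0.05 on the adjusted p of edgeR's test and grey points did not. Glycolysis genes lay on both sides of 0, whereas all 8 black points among the regulators lay above 0 with TMM scaling. Of these 8, 3 were called higher with the endothelial marker scaling, among them Kdr, which is itself 1 of the markers.

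The genes most like Pfkfb3 across the 6 mice were sought among 9276 genes outside the lists with a mean of at least 10 CPM. Likeness was the root mean square difference of log2(CPM + 1) after centring each gene on its mean. The closest 5 were Atp1b2 (difference 0.0447), Idh1 (0.0509), Hexa (0.0527), Tshz2 (0.0531) and Wwtr1 (0.0578), against a median of 0.571 over the genes compared. Under the endothelial marker scaling Atp1b2 missed the threshold, at 0.27 (adjusted p = 0.0589 in edgeR's test). Atp1b2 encodes a subunit of the sodium pump, Idh1 the cytosolic isocitrate dehydrogenase, Hexa a lysosomal hexosaminidase, Tshz2 a zinc finger protein and Wwtr1 the Hippo pathway coactivator TAZ. Idh1 was at 57.9, 59.6 and 60.3 CPM in saline mice and 112, 119 and 137 CPM in PD mice, close to the levels of Pfkfb3 in each mouse. Since the groups differ by a large step in all of these genes, the likeness mostly reflects a change of about the same size.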

How the data were processed

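Cells labelled as peritoneal ECs, which also held abundant transcripts of other cell types, were sequenced from 3 saline and 3 PD mice, and groups were taken from the sample labels. The authors deposited whole-number read counts per gene and mouse, possibly rounded estimates, and FPKM values they computed with a length set per mouse. The deposited table also holds group mean FPKM, a log2 ratio, a p-value and an FDR from a test by the authors, none of which was used. The submitters' processing notes name fastp 0.18.0, Bowtie2 2.2.8, HISAT2, StringTie 1.3.1 and RSEM. The genome build is not given in the sources used here, so positions are those of GENCODE M21 (GRCm38), to which 22128 of 22183 identifiers matched. Whether counting used strand is not stated, so reads of overlapping genes may be mixed.

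Counts were filtered with filterByExpr, scaled by TMM and tested with edgeR 4.0.16 (limma 3.58.1, DESeq2 1.42.0, R 4.3.3) without covariates. P-values were adjusted by Benjamini-Hochberg over 14005 genes. Standard errors were derived from the F statistic. Shares and ratios of FPKM (pseudocount 0.1) were compared by exact permutation tests in scipy 1.17.1. On simulated counts of 14005 genes in this comparison, 200 genes were changed, by about as much as Pfkfb3 or more. Of the 197 changed genes that were tested, 180 were recovered (91.4%), and 11 calls (5.76%) were false. Far fewer genes were changed than were called in the data, and no smaller changes were simulated. These rates therefore do not carry over to the smaller changes reported here. Replicate libraries differed by more than sampling noise (chi-square per gene 6.46 to 17.8). The genes named by rule are the 10 members, up to 3 called genes with the largest rise and fall of each list, and the 5 genes most like Pfkfb3. Other list genes, among them Kdr, Klf2, Hif1a, Prkaa1, Egln3, Vegfa and Pcx, were named outside that rule. The values of 1 glycolysis gene are not reported here. Members and lists were chosen with earlier results of these data known. Alternatives were no filter, a block for the replicate number, DESeq2, limma-voom, other scalings, other pseudocounts, shares of counts, and leaving out each mouse. No sample column was left unmatched (0).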

Additional observations from a re-analysis of the deposited data

How the results depend on the processing

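The number of genes called, 8246, stayed within 1.5 times under every alternative and between 6996 and 8018 with each mouse left out, although the endothelial marker scaling turned the split from 4359 higher and 3887 lower to 1631 higher and 9115 lower. Of the genes at the phosphofructokinase step, 3 were called higher, and between 1 and 3 with each mouse left out. The lowest count was without PD mouse 2, when only Pfkfb3 passed. None was called lower, and between 0 and 1 with each mouse left out, Pfkl passing without saline mouse 2 and Pfkfb1 without PD mouse 1. DESeq2 called 1 lower (Pfkl), and DESeq2 size factors in edgeR called 2 (Pfkl and Pfkfb2). The endothelial marker scaling called 1 higher and 6 lower, and reversed Pfkfb4 (-0.34), Pfkm (-0.33), Pfkp (-0.53), Klf2 (-0.049) and Hif1a (-0.52). Since it shifts every gene by about the same amount, it moves small changes below 0 by construction. The Pfkfb3 share differed by 10.2 to 13.2 percentage points with each mouse left out, the Pfkp share by 4.39 to 7.89, the Pfkfb3 to Pfkfb4 ratio by 0.54 to 0.78 and the ratio of PFK-1 subunits to bisphosphatases by -1.44 to -0.95. A pseudocount of 1 FPKM moved the last to -0.21, and it could not be computed over genes with a mean of at least 1 FPKM, since neither Fbp gene reached that mean. The replicate number of the labels did not pair the mice, since the correlations of deviations for equal numbers were 0.188, 0.0671 and -0.274. With the replicate block, 7909 genes were called, Pfkfb4 missed the threshold (adjusted p = 0.0554 in edgeR's test), and among the listed genes only Eno1 changed its call as well. The reads of Fbp1 and Fbp2 and 3 mice per group limit what could be detected.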

Other observations

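The read count of a gene divided by its FPKM and by the total count of the library gives the transcript length that the FPKM values imply, which depends on the mix of isoforms assigned in that mouse. For Pfkfb3 it was 2.83, 2.79 and 2.90 kb in saline mice and 2.80, 2.64 and 2.71 kb in PD mice, so the groups overlapped. Pfkfb2 varied most among the 8 genes with at least 30 reads in each mouse, from 2.37 to 3.68 kb, with both ends of the range in PD mice. Pfkfb4 varied least, from 3.27 to 3.46 kb. The difference in Pfkfb3 share was 10.7 percentage points when computed from counts rather than FPKM.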
